A study of Mus musculus with 4 samples.

Results

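The cells described here were the macrophages that the deposited table of cells named TAM_C1q, TAM_Spp1, TAM_cycling or Ctsk_Macro in RTT_PTGS12KO and RTT_ROSA26. They were chosen by those names alone and numbered 10825, of 17132 cells in both samples and 33368 in the series. Every sample came from subcutaneous YUMM1.7 mouse melanoma expressing ovalbumin (YUMM1.7 OVA), grown in Rag2-/- mice. These mice lack their own lymphocytes of the T and B lineages. Ovalbumin-specific OT-1 T cells were given on day 7, and live CD45+ cells were sorted on day 10, after 72 h.

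RTT was a line resistant to targeted therapy and kept in the BRAF inhibitor dabrafenib. RTT_ROSA26 was an RTT line with a control guide against the Rosa26 locus, and RTT_PTGS12KO an RTT line with Ptgs1 and Ptgs2 knocked out. Both engineered lines carried a doxycycline-inducible Cas9, and Cas9 clones and single-cell-derived lines were used in the study, so a difference can also belong to a clone. The labels give 1 tumour per condition, whereas a legend of the study describes pooled tumours, and this was not settled. NTT, a line naive to therapy, was not used here. With 1 sample a side there are no replicates and no difference was tested. All differences are descriptions of these samples, and a mouse, a clone and the knockout cannot be told apart.

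Ptgs1 and Ptgs2 encode the cyclooxygenases COX1 and COX2, which start the synthesis of prostaglandins such as PGE2. PGE2 acts on macrophages through the receptors EP2 and EP4, which raise cAMP, and is known to dampen their inflammatory and interferon responses. Tumour-associated macrophages come in several states. Those rich in complement C1q and apolipoprotein E resemble resident scavengers, those rich in Spp1 are linked to hypoxia and matrix, cycling ones divide, and Ctsk-rich ones carry osteoclast-type genes such as Acp5. The question was which differences these states shared and which belonged to 1 state, beyond genes driven by interferon.

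The knockout was made in the cancer cells only, so the guides are shown to place the edit, with the adjoining 3 bases (the PAM) in capitals. The Ptgs2 guide lies on the minus strand at chr1:150104014-150104033 of GRCm38, in coding exon 7 of 10, and the Ptgs1 guide on the minus strand at chr2:36251276-36251295, in the coding part of exon 11 of 11.
Ptgs2: gttgtgctcccgaagccagaTGG
Ptgs1: gcacacggaaggaaacatagGGG

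Summed over cells, the knockout and the Rosa26 control held 1556 and 2247 TAM_C1q cells, 1267 and 1500 TAM_Spp1 cells, 1832 and 1834 TAM_cycling cells and 188 and 401 Ctsk_Macro cells. The sums ran from 3869471 to 42620864 UMIs (unique molecular identifiers, 1 per captured transcript). Median UMIs per cell were close between the samples except in TAM_Spp1, at 11681 in the knockout and 7803 in the control. A count of 3 UMIs equal 0.775 CPM (counts per 1000000 UMIs) in the smallest sum, the knockout's Ctsk_Macro. Checked against 10 markers each, 8 to 10 of a type's markers were highest in their own type in every sample. The sum of a type's own markers still differed between samples, at 27030 CPM in the knockout, 42630 in the Rosa26 control and 53320 in RTT for TAM_C1q. The sums were 18280, 21850 and 18550 CPM for TAM_Spp1, 3405, 3056 and 3263 CPM for TAM_cycling, and 32390, 32000 and 33650 CPM for Ctsk_Macro. Over all 33368 cells of the series, 98 barcodes occurred in more than 1 of the 3 chip loads. The load was read from a number in the cell names, and the loads were taken here as technical repeats from 1 pool of cells.

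A gene was compared where the mean of the knockout and the control reached 20 CPM in at least 1 type, which kept 5955 genes, 211 of them interferon genes. Interferon genes were those of set lists and name families, so genes outside them can still respond to interferon. The difference is the log2 ratio of CPM + 1, knockout minus Rosa26 control, with a 95% interval of the plain UMI ratio (exact binomial) that covers counting error only and can sit slightly farther from 0 than the ratio of low genes. In TAM_C1q, 96 genes were at least 2-fold higher in the knockout (1.61% of those tested) and 35 lower (0.588%). TAM_Spp1 had 110 higher (1.85%) and 45 lower (0.756%). TAM_cycling had 182 higher (3.06%) and 101 lower (1.7%). Ctsk_Macro had 285 higher (4.79%) and 46 lower (0.772%). Outside the interferon genes Ctsk_Macro had 146 higher and 46 lower against RTT_ROSA26, but 70 higher and 81 lower against RTT, so its excess of higher genes rested on the control. The medians of all tested genes lay between -0.09 and -0.06 on the log2 scale.

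**Figure D1:**
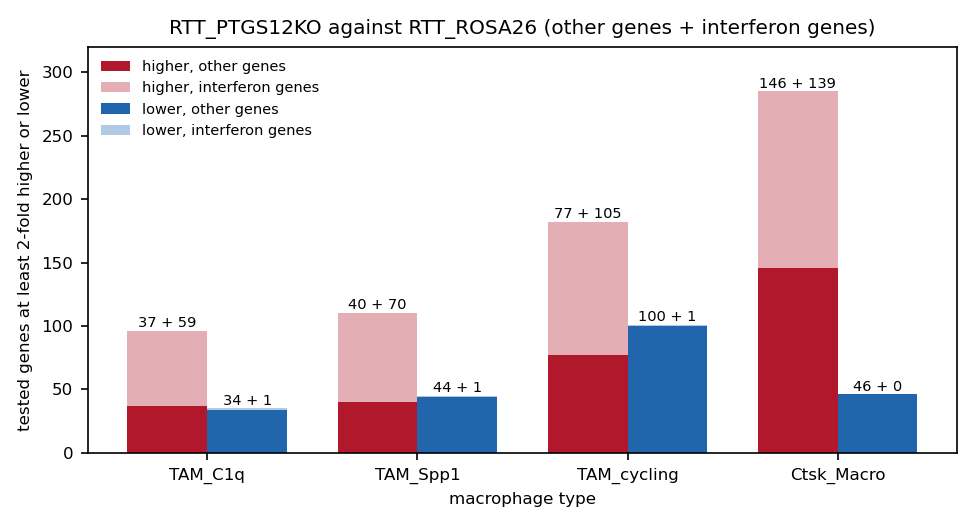
Tested genes at least 2-fold higher (red) or lower (blue) in RTT_PTGS12KO than in RTT_ROSA26 by macrophage type, with genes outside the interferon lists in full colour and interferon genes pale. Interferon genes made up 59 of 96 higher genes in TAM_C1q and 139 of 285 in Ctsk_Macro, and at most 1 of the lower genes of a type.

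Interferon genes set the scale. Of the 211, 51 were at least 2-fold higher in all 4 types (0.856% of all tested genes) and 0 were lower in all 4. The immunity-related GTPase Iigp1 stood at 179.7 CPM in the knockout, 9.70 in the Rosa26 control and 29.65 in RTT in TAM_C1q, and at 662.4, 22.94 and 96.7 CPM in Ctsk_Macro. Its log2 ratio was 4.08 in TAM_C1q, 3.78 in TAM_Spp1, 4.87 in TAM_cycling and 4.79 in Ctsk_Macro. The guanylate-binding proteins Gbp6 and Gbp2, whose close copies can share reads, had ratios of 2.96 to 4.40 and of 2.90 to 4.78. In these genes RTT lay above the Rosa26 control in every type, so the choice of control moved their ratios.

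Outside the interferon genes, sharing was rare. Of 5744 such genes, 207 were at least 2-fold higher in some type and 165 lower in some type. In the higher direction 146 passed in 1 type, 35 in 2, 20 in 3 and 6 in all 4 (0.104%). In the lower direction 121 passed in 1 type, 33 in 2, 7 in 3 and 4 in all 4 (0.0696%). The same rule between the controls, RTT_ROSA26 against RTT, gave 1 higher (0.0174%) and 3 lower (0.0522%). The compared genes were chosen by their level in the knockout and RTT_ROSA26. Genes high in RTT alone could not enter, which can hold this control count down. Against RTT in place of RTT_ROSA26, the knockout had 14 shared higher (0.244%) and 7 shared lower (0.122%) among these same 5744 genes. The 10 shared genes were Qpct, Gatm, Rnase6, Ndrg1, Cish and Batf3, which were higher, and Gdf3, Ppbp, S1pr1 and Sox4, which were lower. The knockout lay outside both controls in the same direction in 37 of their 40 gene-by-type values, and 39 of the 40 kept their sign in each of the 3 loads. Neither count is independent support. The genes were chosen by the same knockout values, and the loads make up the same sums. Of the 10, 4 were also at least 2-fold apart from RTT in all types, namely Gatm, Batf3, Ppbp and Sox4. Only Gatm and Sox4 reached the 20 CPM minimum in all 4 types. Qpct and Batf3 entered through TAM_cycling alone, Cish and Ppbp through TAM_Spp1 alone, and Gdf3 and S1pr1 through TAM_C1q alone.

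Gatm encodes the mitochondrial enzyme that makes the creatine precursor guanidinoacetate from arginine and glycine. In TAM_C1q it stood at 285.4 CPM in the knockout, 119.7 in the Rosa26 control and 92.7 in RTT. In TAM_Spp1 the levels were 195.1, 57.2 and 47.1 CPM. In TAM_cycling they were 432.1, 192.1 and 189.2 CPM, and in Ctsk_Macro 58.4, 21.3 and 24.0 CPM. The knockout was thus the highest of the 3 samples in every type and the controls lay close together. The log2 ratios were 1.25 (1.20 to 1.31), 1.75 (1.66 to 1.89), 1.17 (1.13 to 1.21) and 1.41 (1.17 to 1.74). Gatm was the only one of the 10 that stayed past 2-fold in all types when 10 CPM in place of 1 were added.

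Batf3 encodes a transcription factor best known for the development of type 1 conventional dendritic cells. Its level was 12.7 CPM in the knockout, 5.56 in the Rosa26 control and 3.6 in RTT in TAM_C1q, and 32.2, 11.9 and 9.34 CPM in TAM_cycling. In TAM_Spp1 it was 6.54, 1.68 and 1.08 CPM, and in Ctsk_Macro 3.62, 0.349 and 1.17 CPM from 14 knockout and 3 control UMIs. The log2 ratios were 1.06, 1.49, 1.37 and 1.78, the last with an interval of 1.53 to 5.81 and a range over the loads of -0.80 to 3.11. Without load 2 the TAM_C1q ratio was 0.96. The other dendritic-cell markers were too low to compare: the 8 markers, Batf3 included, summed to 14.8 and 7.36 CPM in TAM_C1q to 9.27 and 8.60 CPM in TAM_Spp1 and to 40.7 and 15.1 CPM in TAM_cycling, knockout and Rosa26 control, with 0 of the 8 at 0. Whether dendritic cells among the named macrophages took part was not tested.

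Qpct, which encodes the glutaminyl cyclase that converts N-terminal glutamine of chemokines and other peptides, had the largest ratio among the 6 shared higher genes. In TAM_cycling it stood at 51.5 CPM in the knockout, 4.43 in the Rosa26 control and 3.19 in RTT, a log2 ratio of 3.27. Its ratios in the other types were 1.93 in TAM_C1q, 2.04 in TAM_Spp1 and 1.94 in Ctsk_Macro, the last from 30 and 11 UMIs with 23.3% of the knockout's UMIs in 1 cell. Rnase6, an antimicrobial ribonuclease of myeloid cells, was at 50.7, 6.08 and 13.3 CPM in TAM_cycling (2.87) and had ratios of 1.10, 1.15 and 1.94 in TAM_C1q, TAM_Spp1 and Ctsk_Macro, the first being 0.82 when thinned. Both genes had their largest ratio in TAM_cycling. For Qpct that is also the type that admitted it, through a high knockout level, so its lean was favoured by the entry rule.

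Ndrg1, a gene induced by hypoxia, was at 87.3 CPM in the knockout, 33.9 in the Rosa26 control and 34.3 in RTT in TAM_C1q. Its log2 ratios were 1.34 in TAM_C1q, 1.09 in TAM_Spp1, 1.33 in TAM_cycling and 1.09 in Ctsk_Macro. Cish, a feedback inhibitor of cytokine signalling through STAT5, was at 45.4, 20.2 and 24.0 CPM in TAM_Spp1 and had ratios of 1.08, 1.13, 1.79 and 1.61 over the 4 types. Against RTT the ratios of Ndrg1 were 0.79 to 1.32 and those of Cish 0.82 to 1.28, so both sat near the 2-fold line with that control. In Ctsk_Macro the Ndrg1 ratio ran from 0.40 to 2.44 over the loads and was 0.63 without load 1 and 0.92 when thinned. Thinning also left Cish at 0.79 in TAM_C1q.

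Among the shared lower genes, Ppbp encodes the platelet chemokine precursor of CXCL7, a neutrophil attractant. Its level in TAM_Spp1 was 5.72 CPM in the knockout, 54.1 in the Rosa26 control and 107.8 in RTT. In TAM_C1q it was 3.6, 17.1 and 56.9 CPM, in TAM_cycling 1.98, 12.8 and 14.8 CPM, and in Ctsk_Macro 0.258, 2.10 and 5.17 CPM, the first from 1 UMI. The log2 ratios were -1.98, -3.04, -2.21 and -1.30 for TAM_C1q, TAM_Spp1, TAM_cycling and Ctsk_Macro, with an interval of -8.40 to -0.36 in the last. In TAM_Spp1 24.4% of the knockout's 90 UMIs came from 1 cell. The knockout was the lowest sample in all 4 types, although the Ctsk_Macro ratio was -0.86 without load 3 and -0.67 without the 5% of cells with the most UMIs.

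Sox4, a transcription factor of progenitor and transforming growth factor-β responses, stood at 31.9 CPM in the knockout, 67.0 in the Rosa26 control and 93.9 in RTT in TAM_C1q. The levels in TAM_cycling were 16.6, 49.6 and 36.6 CPM. Its log2 ratios were -1.05, -1.04, -1.52 and -1.09 over TAM_C1q, TAM_Spp1, TAM_cycling and Ctsk_Macro. Sox4 fell short of 2-fold in some type with TMM factors (-0.98 in TAM_C1q and -0.95 in TAM_Spp1), when thinned (-0.97 in TAM_Spp1) and without load 1 (-0.99 in TAM_C1q), load 2 (-0.78 in Ctsk_Macro) or load 3 (-0.86 in TAM_Spp1). S1pr1, the receptor that guides cells along sphingosine-1-phosphate, was at 18.1, 39.3 and 31.8 CPM in TAM_C1q, with ratios of -1.08, -1.04, -2.04 and -1.54. Against RTT the S1pr1 ratios were -0.78, -0.78, -0.99 and -1.71. S1pr1 fell short of 2-fold in TAM_Spp1 with TMM factors (-0.96), by means of single cells (-0.89), without the 5% of cells with the most UMIs (-0.97) and without load 1 (-0.83), and in TAM_C1q without load 3 (-0.83).

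Gdf3, a TGF-β family growth factor made by macrophages, was shared only against the Rosa26 control. In TAM_C1q it was at 11.1 CPM in the knockout, 36.0 in the Rosa26 control and 5.21 in RTT, and in TAM_cycling at 6.41, 33.2 and 6.48 CPM. Its ratios against RTT_ROSA26 ran from -2.21 to -1.44, while against RTT they were 0.96, 0.48, -0.02 and 0.14. The Rosa26 sample stood alone in this gene.

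**Figure D2:**
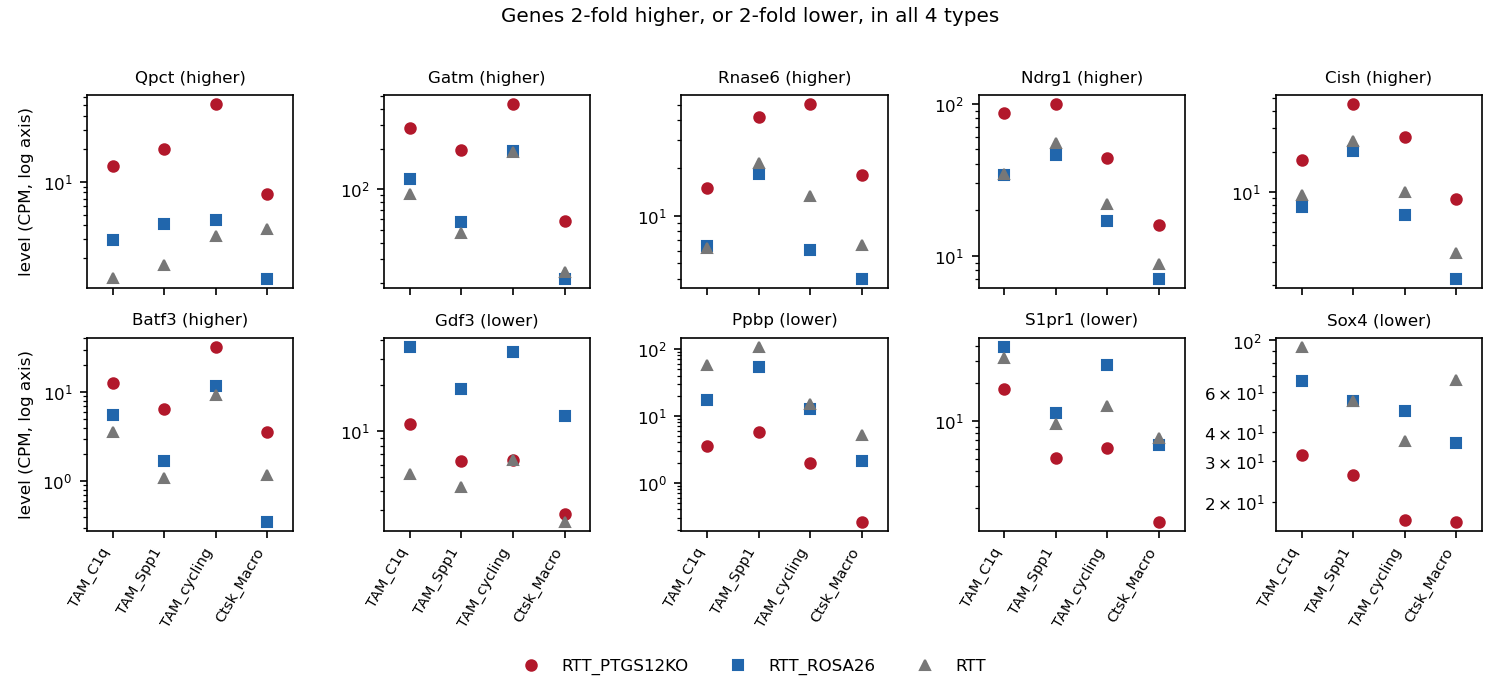
Levels in CPM (log axis, a different range in each panel) of the 10 genes outside the interferon lists that were 2-fold higher or lower in all 4 types, in RTT_PTGS12KO (circles), RTT_ROSA26 (squares) and RTT (triangles). The knockout lies apart from both controls in every type for Gatm, Batf3, Ppbp and Sox4, whereas for Gdf3 the Rosa26 control is the sample that lies apart.

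Promoters of shared higher genes that hold the core of the hypoxia response element are shown, with the core (ACGTG or its reverse complement) in capitals. The core was searched because Ndrg1 is a hypoxia gene, although Ndrg1 itself had no window here. A common cause was not tested. RefSeq windows of 250 bases before the start (GRCm38.p6) matched 6 of the 10 shared genes, namely Gatm, Rnase6, Cish, Batf3, Ppbp and Sox4. The core matched in Gatm (chr2:122611278-122611527, minus strand), Cish (chr9:107296409-107296658, plus strand) and Batf3 (chr1:191098164-191098413, plus strand, where both strands match in overlap), and not in Rnase6, Ppbp or Sox4, whose windows are not printed, so the printed ones are those that match. It is present in 16.6% of 32851 promoters. The interferon-gamma site TTCNNNGAA (7.02% of promoters) matched in Batf3 only, the interferon-stimulated response element (2.98%) in windows of Rnase6 only, and the cAMP element TGACGTCA (1.55%) in 0 of the 6 genes. These matches describe letters, not binding.
Gatm: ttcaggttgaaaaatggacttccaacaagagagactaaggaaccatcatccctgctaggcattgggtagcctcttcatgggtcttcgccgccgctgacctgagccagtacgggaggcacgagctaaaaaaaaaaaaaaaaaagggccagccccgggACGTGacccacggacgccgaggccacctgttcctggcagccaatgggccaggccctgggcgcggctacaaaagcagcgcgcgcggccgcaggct
Cish: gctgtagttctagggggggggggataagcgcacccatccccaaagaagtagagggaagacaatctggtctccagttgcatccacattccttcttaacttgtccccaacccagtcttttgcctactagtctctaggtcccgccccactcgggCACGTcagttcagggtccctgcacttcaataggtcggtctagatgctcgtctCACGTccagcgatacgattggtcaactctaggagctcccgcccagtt
Batf3: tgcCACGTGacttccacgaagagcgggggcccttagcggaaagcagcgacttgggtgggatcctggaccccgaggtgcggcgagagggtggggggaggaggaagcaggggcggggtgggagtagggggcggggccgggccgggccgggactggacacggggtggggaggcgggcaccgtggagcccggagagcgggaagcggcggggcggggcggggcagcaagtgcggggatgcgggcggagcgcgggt

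When only the 3 TAM types were required to pass, a choice made after seeing the data, 12 genes were higher (0.209%) and 8 lower (0.139%). The 6 genes added on the higher side were Fbxl5, Hspb1, Tnip3, Hba-a2, Cdc42ep2 and Insl6, and the 4 on the lower side Ctla2a, Acp5, Edil3 and Spsb1. Ctla2a, an inhibitor of cathepsin L whose close copy Ctla2b can share reads, was at 41.1 CPM in the knockout, 277.4 in the Rosa26 control and 272.5 in RTT in TAM_C1q, and at 21.5, 235.9 and 166.5 CPM in TAM_cycling. Its log2 ratios were -2.73, -1.60 and -3.40 in TAM_C1q, TAM_Spp1 and TAM_cycling, against -0.23 (-0.89 to 0.34) in Ctsk_Macro. The knockout was below both controls in the 3 TAM types, although in TAM_Spp1 the Ctla2a value ran from -2.87 to -0.57 over the loads and was -0.92 without load 3.

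Acp5, the tartrate-resistant acid phosphatase of osteoclasts, was at 92.5, 198.8 and 274.4 CPM in TAM_C1q, knockout first, then Rosa26 control and RTT. In Ctsk_Macro it was at 7629, 8700 and 9596 CPM. Its log2 ratios were -1.10, -1.47 and -1.56 in the TAM types and -0.19 in Ctsk_Macro, where the gene defines the type. Edil3, an integrin ligand that promotes clearance of dying cells, had ratios of -1.34, -1.28 and -1.69 in the TAM types and -0.42 in Ctsk_Macro. Both genes were highest in Ctsk_Macro, whose markers were lower in the TAM types as well. The 10 Ctsk_Macro markers summed to 380.4 CPM in the knockout and 586.5 in the Rosa26 control in TAM_C1q, to 268.2 and 490.6 CPM in TAM_Spp1 and to 276.6 and 514.3 CPM in TAM_cycling, with 1, 2 and 3 of 10 at least 2-fold lower. Ctsk_Macro cells made up 1.83% of the knockout's cells and 5.87% of the control's. The part of RNA from these cells in the TAM values was not tested.

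Tnip3, an inhibitor of NF-κB signalling, was at 103.7 CPM in the knockout, 27.1 in the Rosa26 control and 11.9 in RTT in TAM_Spp1, with ratios of 1.26, 1.90 and 1.73 in the TAM types, the first being 0.87 without load 3, and 0.99 in Ctsk_Macro. Fbxl5, the iron-sensing ubiquitin ligase subunit that limits iron regulatory protein 2, had ratios of 1.03, 1.12, 1.38 and 0.69, the first being 0.97 without load 3. Hspb1, a small heat shock protein, was at 62.7, 5.50 and 4.89 CPM in TAM_C1q, with ratios of 3.29, 2.74 and 1.49 in the TAM types and -0.45 in Ctsk_Macro, and its load values in TAM_C1q ran from 2.22 to 4.96. Hba-a2, a haemoglobin gene of red cells whose close copy can share reads, had 44.9% of its 840 knockout UMIs in TAM_C1q in 1 cell. Its direction turned in places: it was at 4.19 CPM in the knockout, 0.365 in the Rosa26 control and 14.9 in RTT in TAM_Spp1, a ratio of 1.93 against RTT_ROSA26 and of -1.62 against RTT, and its TAM_C1q ratio of 1.98 became -0.86 without load 2.

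Few genes belonged to 1 type. The rule asked for at least 2-fold in that type, under 0.5 on the log2 scale in that direction in the other 3, and a counting interval apart from theirs. TAM_C1q had 1 higher (0.0174%) and 0 lower genes (0.0%). TAM_Spp1 had 4 higher (0.0696%) and 11 lower (0.192%), and TAM_cycling 4 higher (0.0696%) and 6 lower (0.104%). Ctsk_Macro had 50 higher (0.87%) and 12 lower (0.209%). A gene entered when any 1 type reached 20 CPM, and in the type they were counted for 0 of 1, 0 of 4, 1 of 4 and 33 of 50 higher genes reached it, in the order TAM_C1q, TAM_Spp1, TAM_cycling and Ctsk_Macro. The same held for 10 of 11, 6 of 6 and 8 of 12 lower genes of the last 3. Against RTT the balance of TAM_Spp1 turned over, to 12 higher and 4 lower. The gene of TAM_C1q was Cd109, a membrane protein that binds TGF-β, at 5.08, 1.94 and 2.08 CPM (1.05), with -0.08, 0.40 and -0.54 in the other types. Cd109 entered through Ctsk_Macro and was below 2-fold in TAM_C1q when thinned (0.21) and without load 2 (0.89).

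Of the 11 lower genes of TAM_Spp1, 3 were past 2-fold against RTT as well. Slpi, a secreted inhibitor of leukocyte proteases, was at 52.2 CPM in the knockout, 193.3 in the Rosa26 control and 74.2 in RTT, a log2 ratio of -1.87 against RTT_ROSA26 and of -0.50 against RTT. Saa3, an acute-phase serum amyloid, was at 11.4, 31.7 and 23.5 CPM (-1.40), with 25.5% of the control's UMIs in 1 cell and -0.98 against RTT, -0.80 by means of single cells and -0.93 without the 5% of cells with the most UMIs. Chil3, a chitinase-like protein of monocytes and alternatively activated macrophages, was at 109.4, 305.3 and 299.4 CPM (-1.47), so here both controls stood above the knockout. Thbs1, the matrix glycoprotein thrombospondin 1, was at 1089, 2350 and 1763 CPM (-1.11), with ratios of -0.13 to 0.06 in the other types. Markers of other cells were lower in the same TAM_Spp1 cells. The 8 monocyte markers summed to 1333 CPM in the knockout, 1916 in the Rosa26 control and 1731 in RTT, with 3 of the 7 compared at least 2-fold lower and a median of -0.52, and Chil3 is 1 of them. The 8 neutrophil markers summed to 198.2, 293.0 and 268.0 CPM, with a median of -0.57 and 0 of the 3 compared above 0, although against RTT the median was 0.003. Their part in the lower genes of TAM_Spp1 was not tested.

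The higher genes of TAM_Spp1 were Ch25h, Cdca3, Bub1 and Gpnmb. Ch25h, which makes the oxysterol 25-hydroxycholesterol, was at 16.3, 3.57 and 2.29 CPM in TAM_Spp1 (1.92). In TAM_C1q it was already at 108.7, 98.3 and 30.3 CPM (0.14), so the knockout's TAM_Spp1 cells remained far below the TAM_C1q level. Against RTT, Ch25h was past 2-fold higher in all 4 types (1.81, 2.40, 1.08 and 1.36), so its place as a gene of 1 type rested on the Rosa26 control. Ch25h was outside the interferon lists used here, and a response of it to interferon was not tested. Cdca3 and Bub1, genes of mitosis, were at 5.65 against 2.12 CPM and 2.35 against 0.438 CPM, knockout against Rosa26 control, while in TAM_cycling they were at 113.4 against 104.4 CPM and 38.6 against 30.6 CPM. The TAM_Spp1 value of Bub1 came from 37 and 6 UMIs, and that of Cdca3 was 0.74 without load 3 and 0.72 when thinned. For all 4 higher genes the Rosa26 level of TAM_Spp1 was the lowest of the 4 types.

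The lower genes of TAM_cycling included Fcrls, Fabp5, Timp2, Mrc1 and Folr2, of which Mrc1 and Folr2 were picked after their values were seen. Against RTT, 3 of the 6 lower and 1 of the 4 higher genes of this type were past 2-fold. Fcrls, an Fc receptor-like scavenger receptor, was at 414.4 CPM in the knockout, 1092 in the Rosa26 control and 802.3 in RTT (-1.40, and -0.95 against RTT), compared with -0.43 in TAM_C1q, -0.14 in TAM_Spp1 and -0.27 in Ctsk_Macro. Fabp5, a fatty-acid binding protein, was at 521.4, 1060 and 1828 CPM (-1.02). Against RTT the Fabp5 ratios were -1.04, -0.72, -1.81 and -1.18 over the 4 types, and its TAM_cycling value against RTT_ROSA26 was short of 2-fold with TMM factors (-0.93), by means of single cells (-0.96), without load 3 (-0.97), without the 5% of cells with the most UMIs (-0.98) and with interferon genes out of the total (-0.98). Timp2, an inhibitor of matrix metalloproteinases, was at 208.1, 453.5 and 352.1 CPM (-1.12, and -0.76 against RTT). Mrc1 and Folr2, the mannose and folate receptors, had ratios of -1.05 and -1.01, both short of 2-fold with TMM factors. The higher genes included Lpl, lipoprotein lipase, at 53.2, 20.5 and 9.72 CPM (1.33). Against RTT, Lpl was past 2-fold higher in all 4 types (1.80, 2.79, 2.34 and 1.20). Ocstamp, a cell fusion protein of osteoclasts, was at 9.29, 3.40 and 11.7 CPM (1.23), where RTT exceeded the knockout.

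Markers of other states moved with these values in TAM_cycling. The 10 TAM_C1q markers summed to 16130 CPM in the knockout, 31240 in the Rosa26 control and 33370 in RTT, with 6 of 10 at least 2-fold lower and a median of -1.17. These markers were also lower in TAM_C1q cells, with a median of -0.445 and 0 of 10 above 0. Their medians were -0.14 in TAM_Spp1 and 0.12 in Ctsk_Macro. In TAM_cycling the 8 monocyte markers summed to 1035, 540.2 and 936.7 CPM, with 5 of the 7 compared at least 2-fold higher and none at 0. They included Ccr2, the monocyte chemokine receptor, at 277.6, 112.7 and 102.4 CPM (1.29), whereas in TAM_Spp1 the sums were 1333, 1916 and 1731 CPM. A different mix of monocyte-derived and resident-like cells under the 1 name was not tested.

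**Figure D3:**
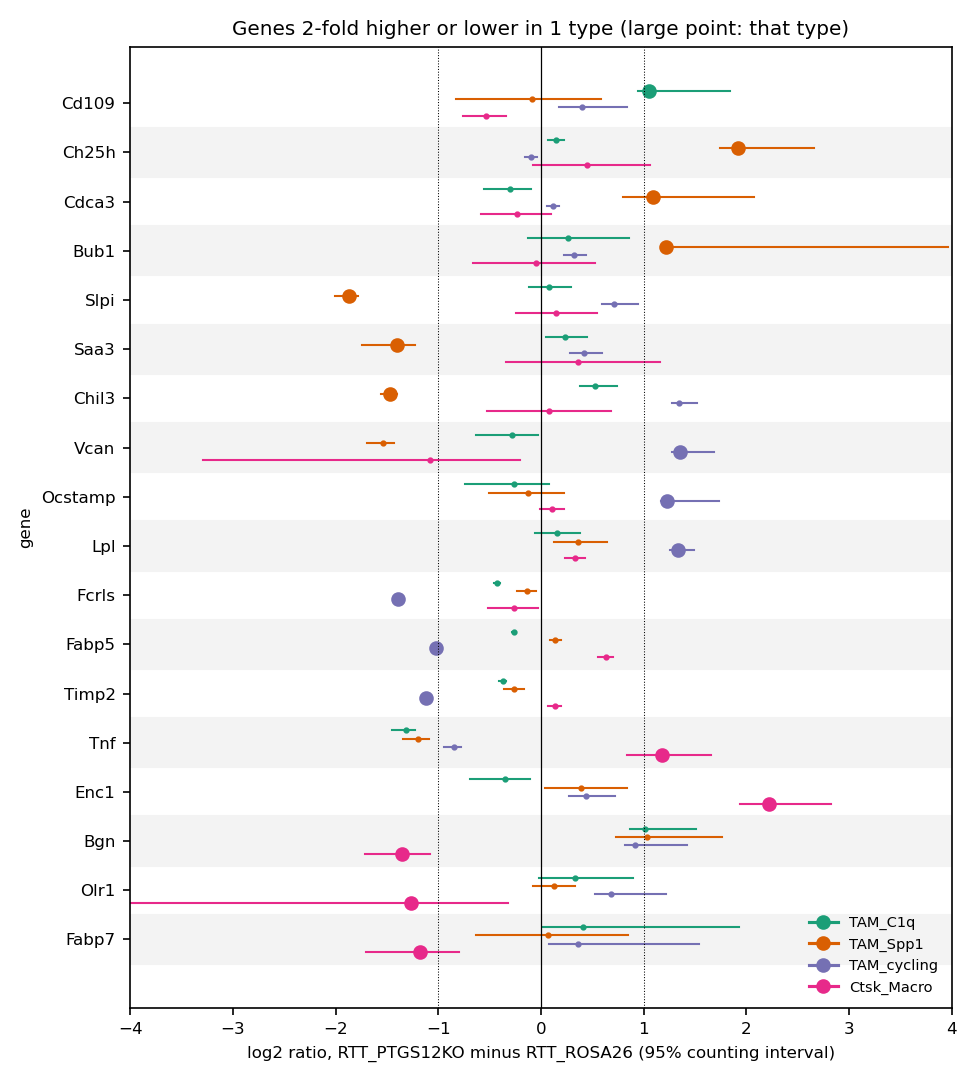
Log2 ratio of CPM + 1, RTT_PTGS12KO minus RTT_ROSA26, of leading genes of 1 type in each macrophage type, with lines for the 95% counting interval of the UMI ratio and dotted lines at 2-fold. Large points mark the type each gene belongs to, such as TAM_Spp1 for Slpi (-1.87) and Ctsk_Macro for Enc1 (2.23), and the interval of Olr1 in Ctsk_Macro has no lower end because the knockout had 0 UMIs.

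Ctsk_Macro held most genes of 1 type, and here the control matters. Of its 50 higher genes, 47 were also higher than RTT, but only 11 at least 2-fold, where 1.22% of all tested genes outside the interferon lists passed. Their median ratio was 1.22 against RTT_ROSA26 and 0.60 against RTT, and RTT lay between the Rosa26 control and the knockout for 41 of them. RTT_ROSA26 against RTT gave 55 genes of this type on the lower side (0.958%), and for 42 of the 50 the Rosa26 level was lowest in Ctsk_Macro among the 4 types. Markers of other states differed between the controls in these cells: the 10 TAM_C1q markers summed to 9697 CPM in the knockout, 8595 in the Rosa26 control and 24840 in RTT, and the 9 macrophage markers to 3702, 3368 and 6188 CPM. RTT stood apart in both sums, and their part in the comparisons with RTT was not tested.

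Enc1, an actin-binding protein of the nuclear matrix, was at 38.0 CPM in the knockout, 7.34 in the Rosa26 control and 12.5 in RTT in Ctsk_Macro, with ratios of 2.23 against RTT_ROSA26 and 1.53 against RTT. Plau, the urokinase plasminogen activator, was at 77.5, 31.0 and 29.7 CPM (1.30 and 1.36). Tnf, the inflammatory cytokine, was at 27.7, 11.7 and 29.8 CPM (1.18 and -0.11), so its level was close to that of RTT, and it was 0.76 without load 1. Of these 3 genes Enc1 and Plau were past 2-fold against both controls.

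All 12 lower genes of Ctsk_Macro were also below RTT, but only 3 at least 2-fold, with medians of -1.17 against RTT_ROSA26 and -0.64 against RTT, and RTT lay between for 9. Among them Bgn, the matrix proteoglycan biglycan, was at 25.3, 66.4 and 33.2 CPM in Ctsk_Macro (-1.36, and -0.38 against RTT), with 23.5% of the knockout's UMIs in 1 cell. Fabp7, a fatty-acid binding protein, was at 13.2, 31.1 and 20.8 CPM (-1.18), with -0.62 against RTT and -0.85 without load 2. Olr1, a scavenger receptor for oxidised lipoprotein, had 0 UMIs in the knockout and 12 in the Rosa26 control, at least 1.80-fold lower against a floor of 3 UMIs, and 0.667 CPM in RTT. Olr1 met the 2-fold rule only on the ratio of CPM + 1 and entered through TAM_Spp1, so a 2-fold difference is not shown. Signals of other cells moved with the type as well: the 8 neutrophil markers summed to 379.9, 185.6 and 252.4 CPM in Ctsk_Macro, the 10 T and NK cell markers to 23, 5.59 and 6.84 CPM and the 8 dendritic-cell markers to 15, 2.45 and 4.33 CPM. Of the 3 neutrophil markers compared, 2 were at least 2-fold higher in Ctsk_Macro, and 1 T and NK cell marker was at 0 in both samples. Their part in the Ctsk_Macro values was not tested.

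Outside the interferon lists, 7 of 5744 genes were at least 2-fold higher in 1 type and 2-fold lower in another. The controls alone, RTT_ROSA26 against RTT, gave 3 such genes. Tnf and Bgn split the TAM types from Ctsk_Macro, Bgn with 1.01, 1.03 and 0.92 in the TAM types. None of the 7 kept both sides against RTT, where the side below 2-fold was TAM_cycling for Vcan (0.65), Chil3 (0.59) and Retnlg (-0.44), Ctsk_Macro for Fcna (0.51), Bgn (-0.38) and Tnf (-0.11), and TAM_Spp1 for Mmp12 (0.73). The opposite calls therefore rested on the Rosa26 control, and against RTT 3 other genes met the rule. Tnf was at 35.4 CPM in the knockout, 89.5 in the Rosa26 control and 177.7 in RTT in TAM_C1q (-1.32) and with -1.20 in TAM_Spp1 and -0.85 in TAM_cycling. Versican (Vcan), a matrix proteoglycan of monocytes, was at 41.5, 122.4 and 93.4 CPM in TAM_Spp1 (-1.54) and at 17.9, 6.43 and 11.0 CPM in TAM_cycling (1.35). Chil3 went the same way, -1.47 and 1.35 in those types, and both are monocyte markers. Mmp12, macrophage elastase, was at 212.8, 82.1 and 127.8 CPM in TAM_Spp1 (1.36) and at 5.69, 14 and 25.3 CPM in Ctsk_Macro (-1.16), where 45.5% of the knockout's 22 UMIs came from 1 cell and the value was -0.46 without load 3. Fcna, a ficolin of the lectin complement pathway, was at 12.4, 35.4 and 46.5 CPM in TAM_cycling (-1.44) and at 100.5, 45.7 and 70.5 CPM in Ctsk_Macro (1.12), the latter 0.99 without load 1.

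Counts of list members past 2-fold are to be read against all tested genes, of which 1.61%, 1.85%, 3.06% and 4.79% were higher and 0.588%, 0.756%, 1.7% and 0.772% lower in TAM_C1q, TAM_Spp1, TAM_cycling and Ctsk_Macro. Ptgs1 was at 27.8 CPM in the knockout, 68.8 in the Rosa26 control and 91.4 in RTT in TAM_C1q and at 22.6, 70.1 and 92.2 CPM in TAM_cycling. Its log2 ratios were -1.28, -0.59, -1.59 and 0.02 in TAM_C1q, TAM_Spp1, TAM_cycling and Ctsk_Macro. Ptgs2 was at 454.2, 607.0 and 719.3 CPM in TAM_Spp1 (-0.42) and at 247.0, 136.6 and 188.7 CPM in TAM_cycling (0.85), with 0.32 in TAM_C1q and 0.99 in Ctsk_Macro. These are host cells that keep both genes, so the counts check nothing about the edit. Of the 12 compared genes of prostanoid synthesis, 2 were lower in TAM_C1q, 3 in TAM_cycling and 0 in TAM_Spp1 and Ctsk_Macro, and 0 were higher, where 0.588% of all genes were lower in TAM_C1q and 1.7% in TAM_cycling. Ltc4s, leukotriene C4 synthase, had ratios of -1.35, -0.60, -2.34 and -0.33, and Hpgds, the haematopoietic prostaglandin D synthase, -0.75, -0.77, -1.53 and -0.65. None of the 9 prostanoid receptors reached the minimum, and their summed level was 28.6 against 27.9 CPM in TAM_C1q and 10.3 against 6.76 CPM in Ctsk_Macro.

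The cAMP response list (25 compared genes) had medians of 0.17, -0.20, 0.41 and 0.20, with 1, 1, 2 and 4 members higher (1.61%, 1.85%, 3.06% and 4.79% of all genes) and 1, 2, 2 and 1 lower (0.588%, 0.756%, 1.7% and 0.772%). Pde4d, a cAMP phosphodiesterase, had ratios below 0 in every type, at 28.5, 98.8 and 60.7 CPM in TAM_Spp1 (-1.76) and with -0.92, -1.11 and -1.37 in TAM_C1q, TAM_cycling and Ctsk_Macro. Adcy3, an adenylate cyclase, had ratios of -1.70 and -1.96 in TAM_C1q and TAM_cycling, -0.74 in TAM_Spp1 from 4 and 15 UMIs, and -0.27 in Ctsk_Macro, where its level was 130.8, 158.3 and 163.7 CPM. Areg, the growth factor amphiregulin, was at 26.2, 4.62 and 4.17 CPM in TAM_cycling (2.27). The list's members therefore moved in both directions.

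Glycolysis and hypoxia genes had medians above 0 in each type, with few members past 2-fold. Of 23 compared, 3, 1, 4 and 3 were at least 2-fold higher in TAM_C1q, TAM_Spp1, TAM_cycling and Ctsk_Macro and 0 were lower, with 21, 19, 21 and 19 above 0. Over all genes 1.61%, 1.85%, 3.06% and 4.79% were higher, and the TAM_Spp1 count is a single gene. The medians were 0.57, 0.34, 0.52 and 0.25 against RTT_ROSA26 and 0.50, 0.25, 0.51 and 0.31 against RTT. Pfkp, the platelet-type phosphofructokinase, was at 97.3 CPM in the knockout, 36.4 in the Rosa26 control and 31.9 in RTT in TAM_C1q (1.39) and had 0.78, 1.73 and 0.57 in the other types. Slc16a3, the lactate exporter MCT4, had 1.13, 0.27, 1.14 and 1.33. Vegfa, the angiogenic factor also induced by hypoxia, did not follow, with -0.10, -0.57, -0.14 and -0.04.

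Of 7 compared genes of cholesterol synthesis and uptake, all 7 were above 0 in each type against RTT_ROSA26, with medians of 0.72, 0.45, 0.78 and 0.91. Against RTT the medians were 0.15, -0.30, 0.38 and 0.58. All 21 members of the list, compared or not, summed to 310.6 CPM in the knockout, 187.5 in the Rosa26 control and 305.1 in RTT in TAM_C1q. In TAM_Spp1 the sums were 329.1, 247.0 and 393.6 CPM, in TAM_cycling 363.6, 208.2 and 310.3 CPM and in Ctsk_Macro 522.0, 277.1 and 358.4 CPM. The Rosa26 control was the lowest of the 3 samples in each type.

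Heat shock genes (13 compared) had medians of 0.44, 0.16, 0.34 and 0.12, with Hsph1 at 83.4, 33.0 and 40.6 CPM in TAM_C1q (1.31). Immediate-early genes (19 compared), which respond within minutes to stimulation and to tissue digestion, had medians of 0.32, 0.07, 0.49 and 0.66, and 7 were at least 2-fold higher in Ctsk_Macro, where 4.79% of all genes were. Klf4, a zinc-finger factor of monocyte differentiation, had ratios of 1.26, 0.39, 1.18 and 1.21, and Atf3 was at 55.1, 22.4 and 22.8 CPM in Ctsk_Macro (1.26). Mitochondrial UMIs in Ctsk_Macro were 4.97% in the knockout, 4.09% in the Rosa26 control and 4.91% in RTT, and a difference in handling was not tested.

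The chemokines listed as not induced by interferon (16 compared) had medians of -0.31, -0.56 and -0.21 in the TAM types and 0.68 in Ctsk_Macro. Against RTT the medians were -0.47, -0.08, -0.61 and 0.08, and the TAM_Spp1 median ranged from -0.66 to -0.06 over the loads. Cxcl1, a neutrophil attractant, was at 36.9, 116.9 and 337.7 CPM in TAM_C1q (-1.64), and Pf4, platelet factor 4, had ratios of -0.91, -1.30, -1.45 and -1.08 over the 4 types. Ccl3 was lower in the TAM types (-1.15, -0.85 and -1.07) and at 0.09 in Ctsk_Macro. Ccl2 and Ccl7, monocyte attractants, had 1.23 and 1.56 in Ctsk_Macro and lay between -0.11 and 0.44 in the TAM types, although against RTT they were higher by 0.78 to 2.70 in all 4 types.

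Efferocytosis and scavenging genes (10 compared) had medians of -0.23, -0.36, -0.82 and -0.04, with 4 lower in TAM_cycling. Against RTT the medians were -0.28, -0.19, -0.62 and -0.89. Gas6, the bridge between dying cells and Mer-type receptors, was at 36.5, 133.5 and 102.5 CPM in TAM_cycling (-1.84), and Stab1, a scavenger receptor, at 200.6, 536.5 and 503.4 CPM (-1.42). Lipid-associated genes (18 compared) had medians of -0.33, -0.08, -0.52 and 0.13. There Apoe was at 5034, 13660 and 15730 CPM in TAM_cycling (-1.44) and Cd36, a fatty-acid and lipoprotein receptor, at 55.6, 10.5 and 8.79 CPM (2.30), so members of the list went opposite ways. These lists stand beside the lower TAM_C1q markers in the same cells.

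Inhibitors of the Ctla2 family and their cathepsin targets (7 compared) had medians of -0.42, -0.19, -0.84 and 0.08, with 2, 1, 2 and 1 of 7 lower and 1 higher in Ctsk_Macro. Nuclear oxidative phosphorylation genes (32 compared) had medians of -0.08, -0.08, -0.03 and -0.15, and lysosomal hydrolases (26 compared) of -0.20, 0.04, -0.39 and 0.17. Cytokines and growth factors (17 compared) had medians of -0.10, 0.08 and -0.14 in the TAM types and 0.61 in Ctsk_Macro, which became -0.11 against RTT. S phase and mitosis genes (33 compared) were at -0.03, 0.11 and -0.01 in the TAM types and at -0.54 in Ctsk_Macro, where the sum was 778.4 CPM in the knockout, 1121 in the Rosa26 control and 703.7 in RTT and the median against RTT was 0.21. Osteoclast genes (15 compared), the programme of Ctsk_Macro, were at 0.02 there and at -0.27, -0.19 and -0.25 in the TAM types. Neither mast cell nor melanoma and stroma markers reached the minimum in any type.

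**Figure D4:**
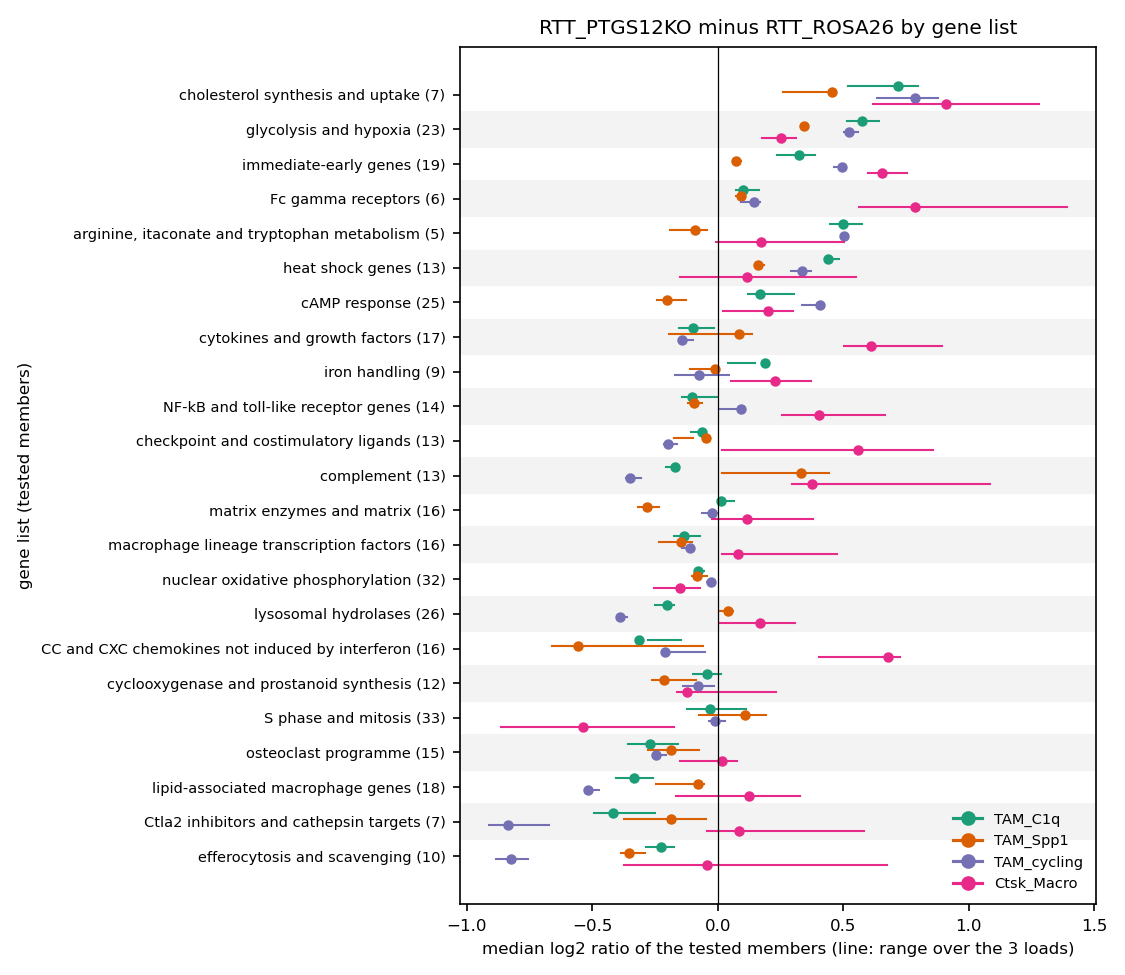
Median log2 ratio of CPM + 1, RTT_PTGS12KO minus RTT_ROSA26, of each gene list's compared members (number in brackets) in the 4 macrophage types. Lines give the range over the 3 loads, taken as technical repeats, which covers no spread between mice. Glycolysis and hypoxia and cholesterol genes lie above 0 in all 4 types, and scavenging genes are lowest in TAM_cycling (-0.82). Chemokines listed as not induced by interferon lie above 0 in Ctsk_Macro only (0.68).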

How the data were processed

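UMI counts were deposited by the authors as a single gene-by-cell matrix, beside a table naming the sample and type of every cell. Per the study's methods and the submitters' processing notes, counts came from cellranger multi 6.1.1 on mm10. Cells were kept above 1000 genes if mitochondrial UMIs stayed below 15% and ribosomal ones below 40%, and were named in Seurat 4.3.0 after Harmony integration. The samples were oligo-labelled and pooled before loading, so free RNA is common to them. No doublet caller was run here, and oligo labels remove doublets between samples only.

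UMIs were summed per sample and type over all 32285 genes and divided by the sum to give CPM. Python 3.11.15, numpy 2.4.6, scipy 1.17.1, pandas 2.3.3, matplotlib 3.10.9, and edgeR 4.0.16 in R 4.3.3 (TMM factors only) were used. The rules were checked on simulated counts. Named genes were up to 8 shared genes per direction by their smallest ratio, up to 3 per type and direction by the gap to the nearest type, 4 opposite genes, the targeted genes, 3 interferon genes and 2 to 4 genes per list described. Genes of the 3 TAM types were added after seeing the data. A few genes beyond these rules (Mrc1, Folr2, Plau and Thbs1 as genes of 1 type, and Gpnmb by name) were chosen after their values were seen. Some genes that these rules name are not reported here. Cell types, gene lists and rules were chosen with earlier results of these data known. Guides came from the study's guide table and were placed on the GENCODE annotation of GRCm38.

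Alternatives were 10 CPM added, a minimum of 50 CPM or none, TMM factors, RTT as the control, means of single cells, stricter cell filters, thinning to 3869471 UMIs, interferon genes left out of the total, each load left out, and 1.5- or 3-fold.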

Additional observations from a re-analysis of the deposited data

Results flagged for a closer look

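The 7 genes below, of 5744 outside the interferon lists, were singled out because they were at least 2-fold higher in 1 macrophage type and 2-fold lower in another. None of these differences could be tested with 1 sample a side. The controls alone, RTT_ROSA26 against RTT, gave 3 genes by the same rule. The gap between the log2 ratios of the highest and the lowest type was 2.89 for Vcan and 2.82 for Chil3 (TAM_cycling above TAM_Spp1). It was 2.56 for Fcna and 2.51 for Retnlg (Ctsk_Macro above TAM_cycling). Retnlg, a neutrophil marker, was at 28.7 CPM in the knockout and 11.8 in the Rosa26 control in Ctsk_Macro and at 5.23 and 14.2 CPM in TAM_cycling. It moved with the 3 compared neutrophil markers, of which it is 1, whose medians were 1.22 (-1.67 to 3.04 over the loads) and -0.70 (-1.62 to 0.50), and the part of neutrophil RNA was not tested. The gap was 2.53 for Mmp12 and 2.39 for Bgn (TAM_Spp1 above Ctsk_Macro), and 2.50 for Tnf (Ctsk_Macro above TAM_C1q). Against RTT each of the 7 kept at most 1 of its sides past 2-fold, the other being at 0.65 for Vcan, 0.59 for Chil3 and -0.44 for Retnlg in TAM_cycling, 0.51 for Fcna, -0.38 for Bgn and -0.11 for Tnf in Ctsk_Macro, and 0.73 for Mmp12 in TAM_Spp1.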

How the results depend on the processing

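No paired analysis was possible because neither side of the comparison has more than 1 sample. Over all alternatives, 1127 values of named genes shifted by less than 0.5 of the width of their counting interval and 351 by more, and 7 values that were at least 2-fold changed sign. Sign changes of smaller values are not among the 7. The 6 shared higher genes became 1 with 10 CPM added, 2 with a minimum of 50 CPM, 17 with none, 14 against RTT, 33 at 1.5-fold, 1 at 3-fold and 12 when only the 3 TAM types had to pass. The 4 shared lower genes became 0, 0, 5, 12, 20, 0 and 8 under those settings, 2 with TMM factors, 2 without load 1, 1 without load 3 and 2 without the 5% of cells with the most UMIs. Sox4 was lost without any 1 load, S1pr1 and Ndrg1 without load 1, Batf3 without load 2, and S1pr1 and Ppbp without load 3. TMM factors lost S1pr1 and Sox4, means of single cells S1pr1, and leaving out the 5% of cells with the most UMIs S1pr1 and Ppbp. Thinning kept 6 of the 10 shared genes and lost Cish, Ndrg1, Rnase6 and Sox4, although the counts stayed at 6 and 4. The counts against RTT used genes that reached the minimum in the knockout and RTT. Shared interferon genes numbered 51, and 83 at 1.5-fold and 25 at 3-fold. The 62 genes of Ctsk_Macro became 248 at 1.5-fold, 7 at 3-fold, 25 with 10 CPM added, 22 against RTT, 33 with a minimum of 50 CPM, 106 with none and 117 without load 3. The 15 of TAM_Spp1 became 42, 2 and 3 under the first 3 of these, 9 with TMM factors, 7 when thinned and 7 without load 3, and against RTT were 16, with 12 higher and 4 lower. The 10 of TAM_cycling became 85 at 1.5-fold, 0 at 3-fold, 2 against RTT, 16 with no minimum and 17 without load 3. The 1 of TAM_C1q became 6 at 1.5-fold, 0 at 3-fold, 0 with 10 CPM added, 3 against RTT and 2 by means of single cells. Fold and minimum settings alter the counts by construction, and for the others the cause was not tested.

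The 7 values were these. Against RTT, Gdf3 was at 0.96 in TAM_C1q, 0.48 in TAM_Spp1 and 0.14 in Ctsk_Macro, Hba-a2 at -1.62 in TAM_Spp1, Ocstamp at -0.30 in TAM_cycling and Tnf at -0.11 in Ctsk_Macro. Without load 2, Hba-a2 was at -0.86 in TAM_C1q. Of the medians beyond 0.5 from 0, cell markers left out, 3 changed sign, all in Ctsk_Macro against RTT: Fc gamma receptors at -0.33, S phase and mitosis at 0.21 and cytokines and growth factors at -0.11. Smaller medians changed sign too, such as cholesterol in TAM_Spp1 at -0.30 against RTT. Among the cell markers, medians beyond 0.5 changed sign against RTT for monocytes in TAM_C1q (0.53 to -0.04), neutrophils in TAM_Spp1 (-0.57 to 0.003) and TAM_cycling markers in Ctsk_Macro (-0.58 to 0.13). The interval covers counting error only, and the 188 knockout Ctsk_Macro cells gave the widest.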
